A study of Homo sapiens with 12 samples.

Results

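The 48 genes described here encode the machinery that takes a cell from G2 through mitosis to division. They were chosen by symbol from textbook roles, with earlier results of these data known. All 48 had a row among the 26364 gene rows of the count table, and all 48 were among the 14184 genes with enough counts to be tested. The samples were 12 RNA-seq libraries of MDA-MB-231, a human breast cancer cell line that lacks hormone receptors and has mesenchymal features. The 4 groups of 3 replicate wells were treated for 24 h with both 1 µM dexamethasone (DEX) and 8 µM SH4-54, with 1 µM DEX, with 8 µM SH4-54, or with neither. DEX is a synthetic agonist of the glucocorticoid receptor, and SH4-54 is a small-molecule inhibitor of the transcription factors STAT3 and STAT5. The labels call the last group untreated and name no vehicle. All groups come from 1 cell line, and the labels describe wells, so every p-value below measures the spread between wells.

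Entry into mitosis is driven by the kinase CDK1 bound to B-type cyclins, after CDC25 phosphatases have removed inhibitory phosphates from CDK1. Kinetochores then tie chromosomes to the spindle, the spindle checkpoint holds back the anaphase-promoting complex (APC/C) until every chromosome is attached, and the APC/C activated by CDC20 releases the sister chromatids. Most of these genes are transcribed periodically, with a peak in G2 and M, under FOXM1, the MYBL2-MuvB complex and the DREAM repressor. These regulators act through an element called the cell-cycle genes homology region (CHR). CCAAT boxes are another textbook element in the promoters of G2/M genes. The amount of such transcripts in a culture depends on how many of its cells are in G2 or M.

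Promoter sequences are shown for the CDK1 and B-type cyclin genes, for KIF20A, the gene with the largest change under DEX, and for CDC20 and MYBL2, the genes that did not fall. They are the 250 bases before the start of the gene on the plus strand, from RefSeq on GRCh38.p14. Capitals mark CCAAT and the CHR letters TTTGAA, each on either strand (ATTGG and TTCAAA on the other strand).
CDK1 (chr10:60778081-60778330): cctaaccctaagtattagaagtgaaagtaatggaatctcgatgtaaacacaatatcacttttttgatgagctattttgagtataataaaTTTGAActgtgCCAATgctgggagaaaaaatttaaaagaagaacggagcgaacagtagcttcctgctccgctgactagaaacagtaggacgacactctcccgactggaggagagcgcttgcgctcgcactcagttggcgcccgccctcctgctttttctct
CCNB1 (chr5:69166900-69167149): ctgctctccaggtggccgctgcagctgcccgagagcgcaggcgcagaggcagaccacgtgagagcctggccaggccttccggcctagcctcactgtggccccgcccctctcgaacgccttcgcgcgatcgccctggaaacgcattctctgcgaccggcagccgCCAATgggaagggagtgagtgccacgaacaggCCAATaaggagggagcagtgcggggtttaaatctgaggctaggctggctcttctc
CCNB2 (chr15:59104896-59105145): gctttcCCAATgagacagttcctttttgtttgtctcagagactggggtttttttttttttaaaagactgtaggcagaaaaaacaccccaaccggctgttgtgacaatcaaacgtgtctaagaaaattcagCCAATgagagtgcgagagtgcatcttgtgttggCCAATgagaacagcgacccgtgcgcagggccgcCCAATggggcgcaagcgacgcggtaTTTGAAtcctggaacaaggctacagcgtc
KIF20A (chr5:138178862-138179111): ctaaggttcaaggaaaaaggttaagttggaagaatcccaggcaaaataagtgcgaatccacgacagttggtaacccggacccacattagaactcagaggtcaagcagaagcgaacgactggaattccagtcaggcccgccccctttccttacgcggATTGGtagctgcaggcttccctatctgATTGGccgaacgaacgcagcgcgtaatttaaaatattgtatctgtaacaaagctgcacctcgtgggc
CDC20 (chr1:43358731-43358980): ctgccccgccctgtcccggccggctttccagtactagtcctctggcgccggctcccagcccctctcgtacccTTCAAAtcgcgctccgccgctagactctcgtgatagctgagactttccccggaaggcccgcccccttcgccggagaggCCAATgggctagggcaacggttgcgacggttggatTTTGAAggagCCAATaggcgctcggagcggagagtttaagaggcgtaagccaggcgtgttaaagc
MYBL2 (chr20:43666864-43667113): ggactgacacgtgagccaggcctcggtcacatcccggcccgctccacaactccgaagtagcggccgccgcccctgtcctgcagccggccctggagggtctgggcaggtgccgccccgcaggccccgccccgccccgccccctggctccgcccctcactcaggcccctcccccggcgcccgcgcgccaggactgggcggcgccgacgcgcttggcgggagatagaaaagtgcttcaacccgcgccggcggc

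The CHR letters and CCAAT do not overlap each other in these stretches. CCNB2 held 4 CCAAT matches, whose first bases lay 244, 120, 87 and 54 bases before the start, and a CHR match at 29 bases before it. CDC20 held a pair of each motif. KIF20A and CCNB1 held a pair of CCAAT matches each and no CHR letters, and MYBL2 held neither motif. Among the 41 genes of the 48 with an entry in the promoter table, counted from 250 bases before to 50 bases after the start, CCAAT was found in 31 (75.6%) and the CHR letters in 28 (68.3%). The corresponding shares were 36.3% and 9.85% of the 10308 tested genes with an entry, and 35.7% and 15.4% of all 27305 promoters in the table. Both motifs were present in 24 of the 41 promoters (58.5%), against 4.12% of the tested genes and 6.08% of all promoters. Of the 38 CHR matches in the 41 promoters, 30 lay from 100 bases before to 50 bases after the start. The 7 genes not matched were FOXM1, AURKA, BIRC5, BUB3, TTK, UBE2C and TPX2. A match is a string of letters and not a tested binding site.

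The libraries held between 25577213 and 35758236 counted reads each. Levels are given as CPM (reads of a gene relative to the size of its library), scaled between libraries by edgeR's TMM method. CPM is not divided by transcript length, so levels are compared between wells and not between genes. The line's expected markers VIM and CD44 were read in every well, at a mean of at least 278.6 CPM in each group. Both fell with DEX against no drug, at log2 fold changes (± SE) of -0.64 ± 0.062 (VIM, edgeR adjusted p = 8.03e-07) and -0.62 ± 0.059 (CD44, 5.55e-07), and both were higher with both compounds than with DEX, by 0.42 ± 0.062 and 0.39 ± 0.059 (edgeR adjusted p = 0.000302 and 0.000379). Of the markers of other cells, the leukocyte gene PTPRC reached at most 0.733 CPM in any well and the endothelial gene PECAM1 at most 1.20 CPM, and both fell with DEX, at log2 fold changes of -1.54 ± 0.46 and -1.05 ± 0.3 (edgeR adjusted p = 0.0125 and 0.00958). The part of these marker changes in the results below was not tested. The hormone receptor genes ESR1 and PGR stayed below 0.5 CPM. The epithelial cadherin gene CDH1, a marker set down as near 0 for this line, was read at 7.11, 5.29 and 11.8 CPM with both compounds, 15.1, 14.5 and 12.9 CPM with DEX, 9.45, 10.1 and 10.2 CPM with SH4-54 and 12.9, 10.5 and 11.0 CPM without drug. Its combination wells all lay below its DEX wells, as in 20.3% of all tested genes. Of ESR1, PGR and CDH1, 2 could be tested, and 1 was called lower with both compounds than with DEX (edgeR, adjusted p below 0.05). The glucocorticoid target FKBP5 averaged 218 CPM with both compounds, 326 CPM with DEX, 54.3 CPM with SH4-54 and 53.9 CPM without drug. FKBP5 and TSC22D3, the 2 such targets checked, were both called higher with DEX than without drug (edgeR, adjusted p below 0.05). With both compounds against DEX, 1 of the 2 was called lower and 0 higher.

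The first comparison sets DEX wells against no-drug wells, and in it nearly all of the genes were lower by a moderate amount. With DEX, 46 of the 48 genes fell and 0 rose (edgeR's quasi-likelihood test, adjusted p below 0.05 over all tested genes), while 23.2% of all tested genes were called lower and 21.9% higher. At an unadjusted p below 0.05, and by the DESeq2 Wald test, 0 rose as well. The median log2 fold change of the 48 genes was -0.53, a fold of 0.694, against -0.01 over all tested genes. The changes ranged from -0.99 to 0.10, so that 15 of the 48 genes were at least 1.5-fold lower and 0 were 2-fold lower. The share at least 1.5-fold lower was 31.2% of the 48 genes and 6.15% of all tested genes. In bulk RNA, fewer cells in G2 or M and less of these transcripts per cell cannot be told apart.

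In single wells the 48 genes together took up 0.881%, 0.892% and 0.869% of the counted reads with DEX, against 1.26%, 1.29% and 1.28% without drug. With both compounds the share was 0.865%, 0.923% and 0.852%, and with SH4-54 it was 1.23%, 1.22% and 1.2%. Every well that held DEX thus lay below every well that did not. All 3 DEX wells lay below all 3 no-drug wells for 46 of the 48 genes one by one, against 28.9% of all tested genes.

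**Figure D1:**
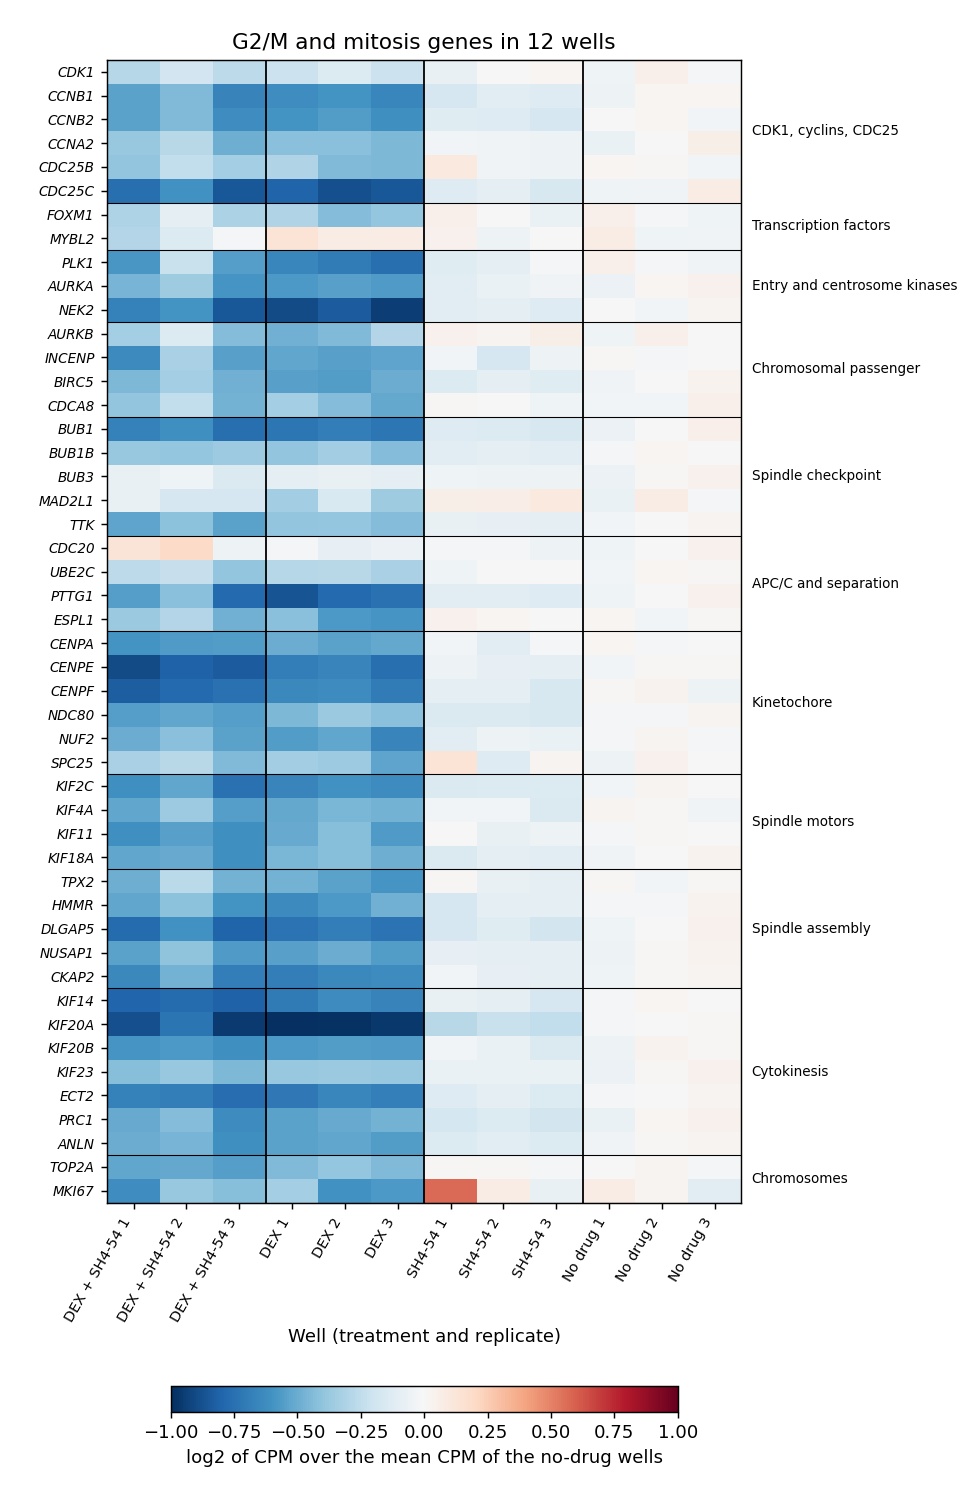
Level of each of the 48 genes (rows, by mitotic function) in each of the 12 wells (columns), as the log2 of CPM over the mean CPM of the no-drug wells. Columns with DEX, alone or combined, are mostly blue (lower), with median values between -0.55 and -0.41 per well, while columns with SH4-54 alone stay near 0; the CDC20, MYBL2 and BUB3 rows are pale throughout.

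The genes of the CDK1 switch all fell with DEX, 6 of 6, with a median log2 fold change of -0.51. CDC25C, the phosphatase that activates CDK1 at mitotic entry, had 25.6, 24.2 and 24.8 CPM with DEX, against 43.4, 43.6 and 46.9 CPM without drug. Its wells did not overlap between the groups, and its log2 fold change was -0.84 ± 0.057 (± SE, as for every log2 fold change below; edgeR adjusted p = 1.57e-08). CCNB1, which encodes cyclin B1, the activating partner of CDK1, had 367, 373 and 359 CPM with DEX and 546, 573 and 573 CPM without drug. All its DEX wells were lower, at a log2 fold change of -0.62 ± 0.045 (edgeR adjusted p = 3.18e-08). The other B-type cyclin CCNB2 changed by -0.59 ± 0.041, the S and G2 cyclin CCNA2 by -0.43 ± 0.045 and the phosphatase CDC25B by -0.40 ± 0.052. The kinase gene CDK1 itself moved least in this group, with 224, 236 and 224 CPM with DEX and 253, 269.9 and 257 CPM without drug, a log2 fold change of -0.19 ± 0.038 (edgeR adjusted p = 0.000906). Its wells were still separate, with the highest DEX well below the lowest no-drug well.

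The transcription factor genes parted from each other. FOXM1, which activates many G2/M genes, had 56.5, 51.6 and 53.2 CPM with DEX and 72.1, 69.1 and 67.8 CPM without drug, and fell, at a log2 fold change of -0.38 ± 0.057 (edgeR adjusted p = 7.32e-05). Its lowest no-drug well was above its highest DEX well. MYBL2, the B-Myb subunit that turns the MuvB complex into an activator, had 32.1, 30.7 and 30.7 CPM with DEX and 30.6, 28.4 and 28.5 CPM without drug. Every MYBL2 well with DEX lay just above every no-drug well, a separation seen in 27.2% of all tested genes, but the log2 fold change of 0.10 ± 0.062 did not pass the test (edgeR adjusted p = 0.232, 95% interval -0.04 to 0.23).

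All 3 kinase genes of mitotic entry and centrosome separation fell, with a median of -0.70. NEK2, the kinase that lets centrosomes part, had 68.5, 71.5 and 66.4 CPM with DEX against 127, 125 and 129.7 CPM without drug. The groups lay far apart, at a log2 fold change of -0.89 ± 0.05 (edgeR adjusted p = 2.2e-09). PLK1, polo-like kinase, which acts at entry, spindle assembly and exit, had 44.8, 43.4 and 41.8 CPM with DEX and 73.2, 69.5 and 69.1 CPM without drug, a log2 fold change of -0.70 ± 0.074 (edgeR adjusted p = 1.8e-06). Both genes were lower in every DEX well. AURKA, the Aurora kinase of the spindle poles, changed by -0.56 ± 0.047.

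The chromosomal passenger complex corrects wrong attachments and later marks the division plane, and 4 of its 4 genes fell with DEX. Survivin, encoded by BIRC5, had 148, 146 and 153 CPM with DEX and 211, 215 and 221 CPM without drug (log2 fold change -0.53 ± 0.037, edgeR adjusted p = 1.97e-08). The scaffold INCENP had 37.0, 36.4 and 36.8 CPM with DEX and 53.4, 52.2 and 53.2 CPM without drug (-0.53 ± 0.063, edgeR adjusted p = 6.51e-06). Neither gene's wells overlapped between the groups. The kinase subunit AURKB changed by -0.40 ± 0.063 and borealin, CDCA8, by -0.43 ± 0.053, so that the 4 subunits fell by like amounts, between -0.53 and -0.40.

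The 5 spindle checkpoint genes fell as well, but by unequal amounts. The kinase BUB1 had 233, 238 and 233 CPM with DEX and 369.8, 386 and 400.0 CPM without drug, a log2 fold change of -0.71 ± 0.038 (edgeR adjusted p = 1.29e-09). The kinase TTK, also called MPS1, had 106, 107 and 103 CPM with DEX and 136, 139.6 and 142 CPM without drug (-0.40 ± 0.036, edgeR adjusted p = 3.1e-07). The DEX wells were separate from the no-drug wells for both. BUB1B, which encodes BUBR1, changed by -0.39 ± 0.03 and MAD2L1, the MAD2 inhibitor of CDC20, by -0.28 ± 0.051. BUB3, the partner of both BUB kinases, had 541, 547 and 540.4 CPM with DEX and 554, 583 and 594 CPM without drug. The BUB3 groups lay close together and its small change of -0.09 ± 0.034 only just passed (edgeR adjusted p = 0.0449). That call was lost without DEX replicate 1, 2 or 3 (edgeR adjusted p = 0.114, 0.0739 and 0.11), SH4-54 replicate 2 or 3 (0.0562 and 0.0568), combination replicate 1 (0.0564) or no-drug replicate 2 or 3 (0.119 and 0.171). It was also lost with the DESeq2 Wald test (adjusted p = 0.0721), with DESeq2 size factors in edgeR (0.0718), with no count filter (0.0617), with the stricter filter (0.0596), with the replicate number as a block (0.0583) and with the compared groups only (0.0539). The other 45 falls were called under every setting tried.

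Among the genes of the APC/C step, 3 of 4 fell. PTTG1 encodes securin, which holds separase inactive until anaphase, and had 113, 121 and 123 CPM with DEX and 201, 207 and 213 CPM without drug. The wells were far apart, at a log2 fold change of -0.80 ± 0.064 (edgeR adjusted p = 1.04e-07). ESPL1, separase itself, had 28.4, 25.5 and 25.1 CPM with DEX and 38.3, 37.3 and 38.2 CPM without drug (-0.53 ± 0.055, edgeR adjusted p = 1.61e-06), again with every DEX well lower. The ubiquitin-conjugating enzyme UBE2C changed by -0.30 ± 0.039. CDC20, the activator that the checkpoint inhibits, had 272, 259 and 263 CPM with DEX and 265, 274 and 282 CPM without drug. Its wells overlapped between the groups, with a log2 fold change of -0.05 ± 0.049 (edgeR adjusted p = 0.443, 95% interval -0.15 to 0.05).

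All 6 kinetochore genes fell, with a median of -0.55. CENPE, the kinesin that moves chromosomes to the spindle equator, had 189, 192 and 181 CPM with DEX and 299, 308 and 308 CPM without drug, a log2 fold change of -0.70 ± 0.033 (edgeR adjusted p = 3.13e-10). CENPF, a large protein of the outer kinetochore, had 669, 677 and 642 CPM with DEX and 1053, 1070.0 and 1009.5 CPM without drug (-0.66 ± 0.035, edgeR adjusted p = 1.16e-09). For both genes the highest DEX well was well below the lowest no-drug well. The subunits of the microtubule-binding NDC80 complex changed by -0.41 ± 0.029 (NDC80), -0.58 ± 0.041 (NUF2) and -0.41 ± 0.077 (SPC25), and the centromeric histone variant CENPA by -0.51 ± 0.042.

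The spindle genes fell in both of their groups, 4 of 4 motors and 5 of 5 assembly factors. KIF2C, which takes microtubules apart at the centromere, had 176, 182 and 179.5 CPM with DEX and 271, 283 and 277 CPM without drug (-0.63 ± 0.044, edgeR adjusted p = 2.34e-08). KIF11, the motor that pushes the spindle poles apart, had 176, 185 and 168 CPM with DEX and 246, 252 and 251 CPM without drug (-0.50 ± 0.037, edgeR adjusted p = 4.38e-08). Neither motor's wells overlapped. The chromokinesin KIF4A changed by -0.48 ± 0.047 and KIF18A, which limits the swing of chromosomes at metaphase, by -0.45 ± 0.036. DLGAP5, or HURP, which stabilizes kinetochore fibres, had 247, 255 and 247 CPM with DEX and 401, 412 and 425 CPM without drug (-0.72 ± 0.044, edgeR adjusted p = 5.14e-09). The spindle protein CKAP2 had 134, 138 and 140.3 CPM with DEX and 210.4, 218 and 221 CPM without drug (-0.66 ± 0.047, edgeR adjusted p = 2.83e-08). Every DEX well of both was below every no-drug well. TPX2, the activator of Aurora A, changed by -0.53 ± 0.052, HMMR by -0.56 ± 0.053 and NUSAP1 by -0.53 ± 0.04.

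The 7 cytokinesis genes all fell, with a median of -0.57. KIF20A, the kinesin that carries the passenger complex to the central spindle, had 171, 172 and 176 CPM with DEX and 338, 344 and 346 CPM without drug. The groups were wide apart, and the log2 fold change of -0.99 ± 0.045 (a fold of 0.505, edgeR adjusted p = 2.28e-10) was the lowest of the 48 genes. ECT2, the exchange factor that activates RhoA at the division plane, had 306, 319 and 312 CPM with DEX and 494, 499 and 512 CPM without drug (-0.68 ± 0.032, edgeR adjusted p = 2.61e-10). Its wells were separate too. The kinesins KIF14, KIF20B and KIF23 changed by -0.67 ± 0.032, -0.57 ± 0.034 and -0.37 ± 0.032, the microtubule bundler PRC1 by -0.50 ± 0.044 and the ring scaffold anillin, ANLN, by -0.54 ± 0.036.

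Of the chromosome genes, TOP2A, the topoisomerase that untangles sister chromatids, had 979, 1014 and 976 CPM with DEX and 1324, 1351 and 1312 CPM without drug, and fell, at a log2 fold change of -0.43 ± 0.029 (edgeR adjusted p = 1.44e-08). The groups were separate and even. MKI67, which encodes the proliferation antigen Ki-67 on the surface of mitotic chromosomes, had 227, 189 and 192 CPM with DEX and 302, 292 and 265 CPM without drug (-0.50 ± 0.13, edgeR adjusted p = 0.00452). Its wells were separate but uneven within each group, and its standard error was the largest of the 48 genes.

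Of the 48 genes, 8 share exons with a gene on the opposite strand that has a row of its own (ANLN, CCNA2, CDC25C, HMMR, KIF18A, KIF20A, PLK1 and PRC1), and the strand setting of the counting is not given, so reads of such pairs cannot be told apart. CDC23, the APC/C subunit gene that overlaps KIF20A, had 95.8, 95.9 and 95.2 CPM with DEX and 106, 105 and 106 CPM without drug. Levels of the other overlapping genes are not given here, and the part of shared reads in these changes was not tested. PTTG1 and KIF4A have near-identical copies, and reads could be split with them. The copy KIF4B was at a mean of 3.69 CPM with DEX and 5.25 CPM without drug, the copy PTTG3P at 2.39 and 3.73 CPM, and PTTG2 at 0.371 and 0.844 CPM.

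By promoter content, the 28 genes with the CHR letters changed with DEX by a median of -0.51 on the log2 scale, against -0.66 in the 13 genes without the letters. Among the genes without a CHR match were KIF20A, NEK2 and CDC25C but also MYBL2. Each gene was scanned at a single annotated start and for the exact letters TTTGAA. Other starts and variant letters were not counted in this split, so a gene without a match may still have the element. These medians describe the listed genes and carry no test.

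**Figure D2:**
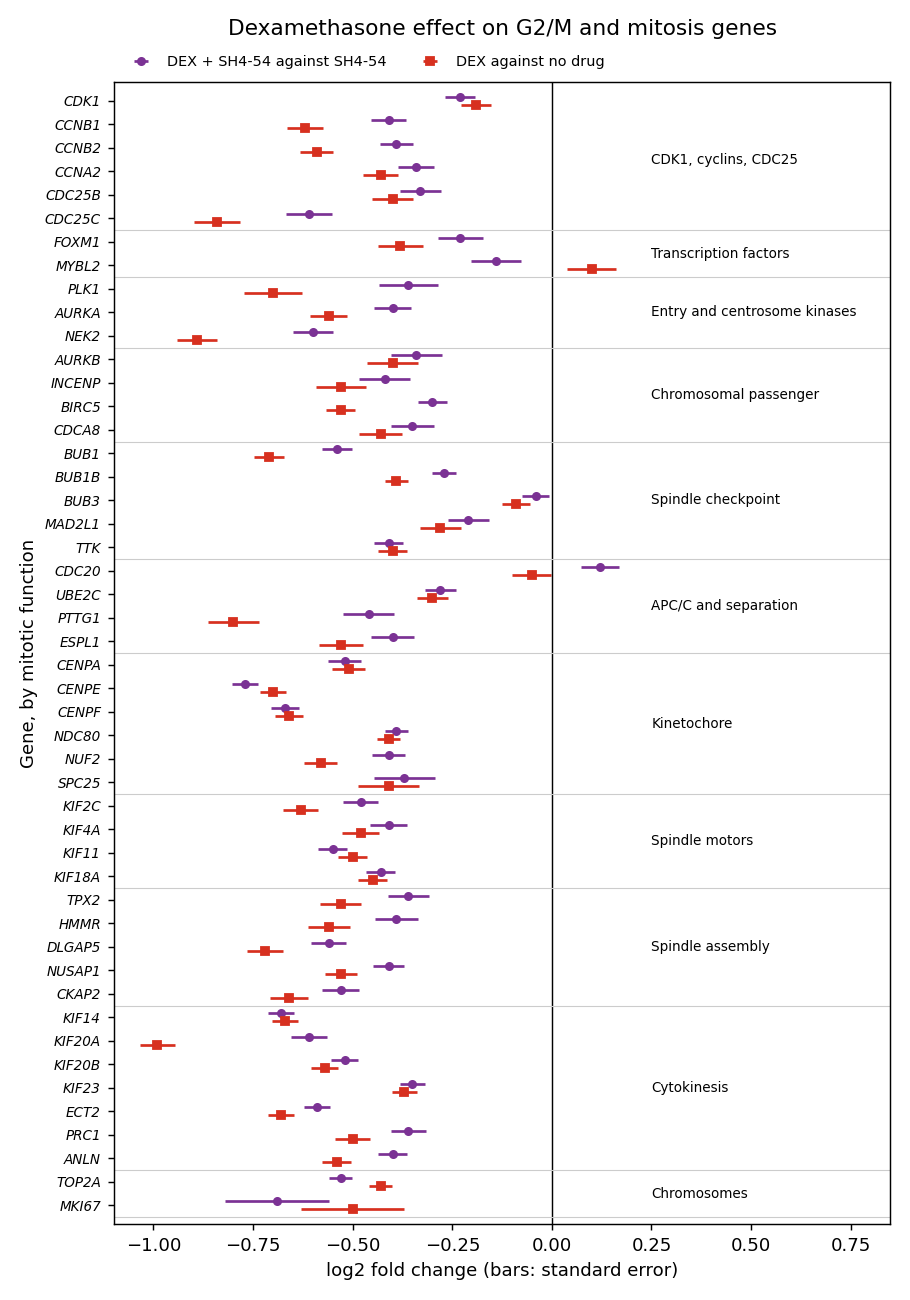
Log2 fold change (x axis, bars are standard errors) of each of the 48 genes for DEX with SH4-54 against SH4-54 (purple circles) and for DEX against no drug (red squares). Most points lie left of 0 in both comparisons, with medians of -0.41 and -0.53, and KIF20A is farthest left without SH4-54.

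Other lists of cell-cycle genes were counted in the same fit. They were set out by textbook role, also with earlier results of these data known. Of 39 other mitosis genes, 35 fell and 0 rose with DEX (edgeR, with 0 higher at an unadjusted p below 0.05 either), and the median log2 fold change was -0.41. Examples were the kinetochore scaffold CASC5, now named KNL1 (-0.53 ± 0.031), DEPDC1 (-0.60 ± 0.034) and the spindle factor FAM83D (-0.62 ± 0.04). All 8 condensin genes, whose products compact mitotic chromosomes, fell (median -0.41), with SMC4 at -0.55 ± 0.03, NCAPD2 at -0.53 ± 0.032 and NCAPH at -0.46 ± 0.036. Of the 13 genes of the constitutive centromere network, 12 fell by smaller amounts (median -0.27), such as CENPN (-0.30 ± 0.044), CENPO (-0.35 ± 0.053) and CENPU (-0.26 ± 0.041).

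The 17 APC/C subunit and partner genes had a median of 0.01, with 6 risen and 5 fallen with DEX, where 21.9% of all tested genes were called higher and 23.2% lower. The genes named here had the smallest p-values of their list, and for the APC/C these were all among the fallen. They were UBE2S (-0.60 ± 0.074), the enzyme that extends ubiquitin chains for the APC/C, FZR1 (-0.29 ± 0.049), its activator in G1, and the subunit CDC27 (-0.25 ± 0.027). The list titled MuvB and DREAM also holds the E2F factors E2F7 and E2F8, beside genes of those complexes. Of its 11 genes, 9 fell and 0 rose, also at an unadjusted p below 0.05 (edgeR, median -0.16). E2F7, a repressor among the E2F factors, was lowest, at 59.7, 58.5 and 51.4 CPM with DEX and 109.9, 111 and 112 CPM without drug, a log2 fold change of -0.97 ± 0.063 (edgeR adjusted p = 9.44e-09), without overlap. Its relative E2F8 changed by -0.19 ± 0.056 and the MuvB subunit LIN54 by -0.20 ± 0.047. Of 28 genes of G1/S and DNA replication, 14 fell and 1 rose (median -0.13, against -0.01 over all tested genes), with RRM1 (-0.20 ± 0.035) and CHAF1A (-0.23 ± 0.04) among the fallen.

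The list of CDK1 regulators holds inhibitors and checkpoint genes, but also CDC25A, MASTL, ENSA and ARPP19, which promote mitosis. Of its 11 genes 3 rose and 3 fell with DEX, counts near the 21.9% and 23.2% of all tested genes, so that nothing is read from the counts. The fallen genes were MASTL (-0.20 ± 0.04), ARPP19 (-0.16 ± 0.029) and the checkpoint kinase gene CHEK1 (-0.11 ± 0.033), named after their values were seen. CDKN1A, which encodes the CDK inhibitor p21, had 118, 109 and 118 CPM with DEX and 60.3, 57.0 and 54.4 CPM without drug, a fold of 2.01 (edgeR adjusted p = 4.04e-10). GADD45A, a stress protein that inhibits CDK1, had 29.3, 30.3 and 29.2 CPM with DEX and 15.5, 16.8 and 17.1 CPM without drug, a fold of 1.8 (edgeR adjusted p = 1.4e-07). Every DEX well of both genes was above every no-drug well. The third was SFN, or 14-3-3 sigma, which keeps CDK1 complexes in the cytoplasm, at a log2 fold change of 0.33 ± 0.051. The 3 risen genes were picked by the smallest p-values of their list, so they are its extremes.

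**Figure D3:**
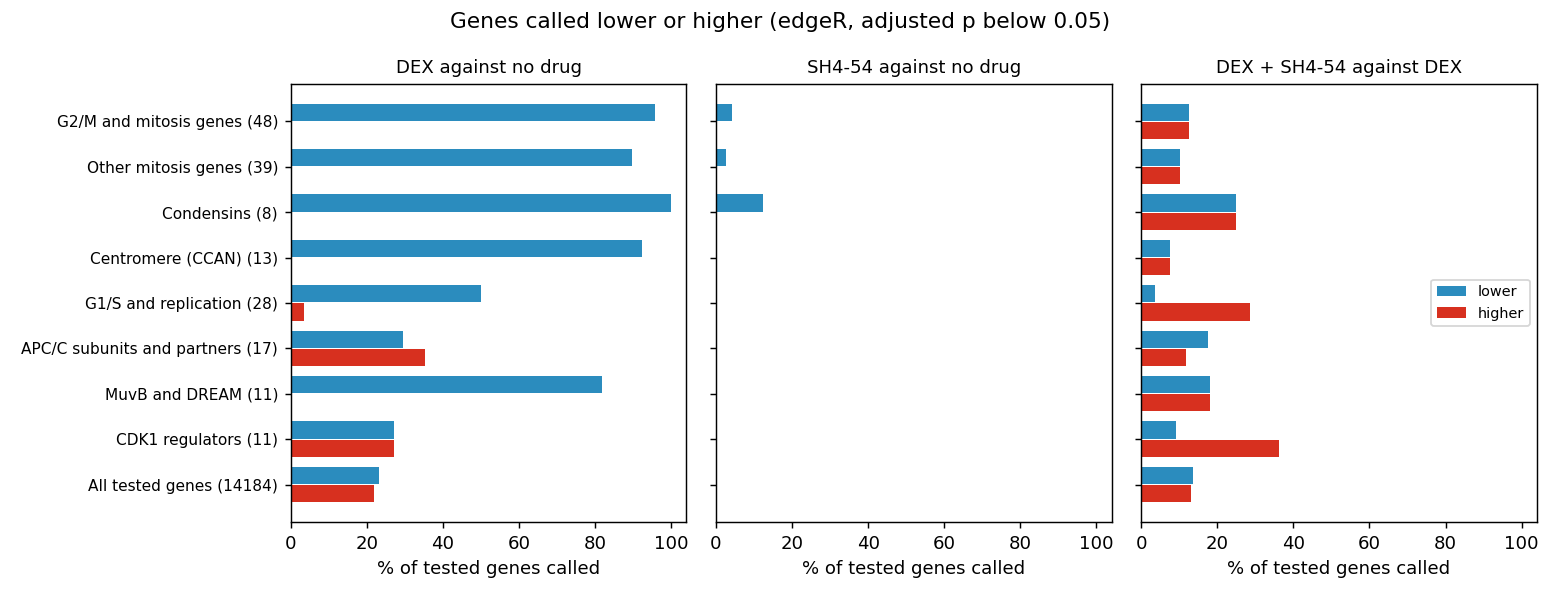
Percent of the tested genes in each list (rows, number of genes in parentheses) called lower (blue) or higher (red) at an adjusted p below 0.05, for DEX against no drug, SH4-54 against no drug, and DEX with SH4-54 against DEX. In the first panel the mitosis, condensin and centromere lists are nearly all blue while 23.2% of all tested genes were called lower; in the second panel all bars are short or absent.

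Changes with SH4-54 alone were small. Of the 48 genes, 2 fell and 0 rose against no drug (edgeR, adjusted p below 0.05), where 0.331% of all tested genes were called lower and 0.268% higher. At an unadjusted p below 0.05, 22 of the 48 genes were lower and 0 higher, against 1025 and 837 of all 14184 tested genes, and the DESeq2 Wald test also called 0 higher. The median log2 fold change was -0.08, and 41 of the 48 values were below 0. All 3 SH4-54 wells lay below all 3 no-drug wells in 26 of the 48 genes, against 12.1% of all tested genes, and all above in 0 of the 48, against 9.13%. KIF20A had 283, 293 and 289 CPM with SH4-54 and 338, 344 and 346 CPM without drug, a log2 fold change of -0.25 ± 0.044 (edgeR adjusted p = 0.0163). NDC80, the gene for the microtubule-binding subunit of the kinetochore, had 162, 162 and 160.5 CPM with SH4-54 and 177, 178 and 182 CPM without drug, a log2 fold change of -0.15 ± 0.029 (edgeR adjusted p = 0.0328). Neither gene's wells overlapped between the groups, and both changes were small beside those with DEX.

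Both SH4-54 calls depended on single libraries. The KIF20A call was lost without SH4-54 replicate 1, 2 or 3 (edgeR adjusted p = 0.076, 0.0544 and 0.0606) and without no-drug replicate 2 or 3 (0.0911 and 0.0879). The NDC80 call was lost without DEX replicate 3 (0.0608), SH4-54 replicate 1, 2 or 3 (0.0954, 0.129 and 0.125), combination replicate 1 (0.0517) or no-drug replicate 1, 2 or 3 (0.0726, 0.146 and 0.17). MKI67 had 425, 302 and 272 CPM with SH4-54, where replicate 1 stood above the other wells of all groups, and its log2 fold change of 0.22 ± 0.12 was not called. Of the other lists, 1 of the 39 other mitosis genes and 1 of the 8 condensin genes fell with SH4-54, and no gene of the remaining 5 lists was called by edgeR (at an unadjusted p below 0.05, 3 of the 13 centromere genes were lower, 2 replication genes were higher and 2 lower, 1 CDK1 regulator was higher and 1 lower, 1 MuvB or DREAM gene was higher and 1 APC/C gene was lower).

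With both compounds the fall was still there. Against no drug 46 of the 48 genes fell and 0 rose (edgeR; 21.6% of all tested genes were called lower and 21.1% higher), with a median of -0.50, and CDC20 and MYBL2 were again the genes not called. Against SH4-54 alone 45 fell and 0 rose (20.3% and 20.1% of all tested genes), with a median of -0.41. In that comparison 8 of the 48 genes (16.7%) were called at least 1.5-fold lower, against 4.14% of all tested genes. Against no drug it was 13 of the 48 (27.1%), against 5.07%. At an unadjusted p below 0.05, 0 of the 48 were higher against no drug and 1 against SH4-54, and the DESeq2 Wald test called 0 higher in both. The genes not called against SH4-54 were BUB3, MYBL2 and CDC20. CENPE had the largest fall of the 48 genes in this comparison, with 164, 174 and 171 CPM with both compounds and 295, 288 and 287 CPM with SH4-54, a log2 fold change of -0.77 ± 0.033 (edgeR adjusted p = 1.87e-10). CCNB1 had 390.0, 414 and 355 CPM with both compounds and 503, 523 and 516 CPM with SH4-54 (-0.41 ± 0.045, edgeR adjusted p = 4.37e-06). In both genes the groups were separate. All 45 calls against SH4-54 held under every setting tried, as did 44 of the 46 against no drug. The BUB3 call against no drug was lost without DEX replicate 1, 2 or 3, SH4-54 replicate 2 or 3, combination replicate 1 or 3, or no-drug replicate 2 or 3 (edgeR adjusted p between 0.0539 and 0.163), and with the compared groups only (0.122), the stricter filter (0.0717) and the replicate number as a block (0.058). The MAD2L1 call was lost without SH4-54 replicate 2, combination replicate 2 or 3, or no-drug replicate 2 or 3 (edgeR adjusted p between 0.0521 and 0.181), and with the stricter filter (0.0532).

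**Figure D4:**
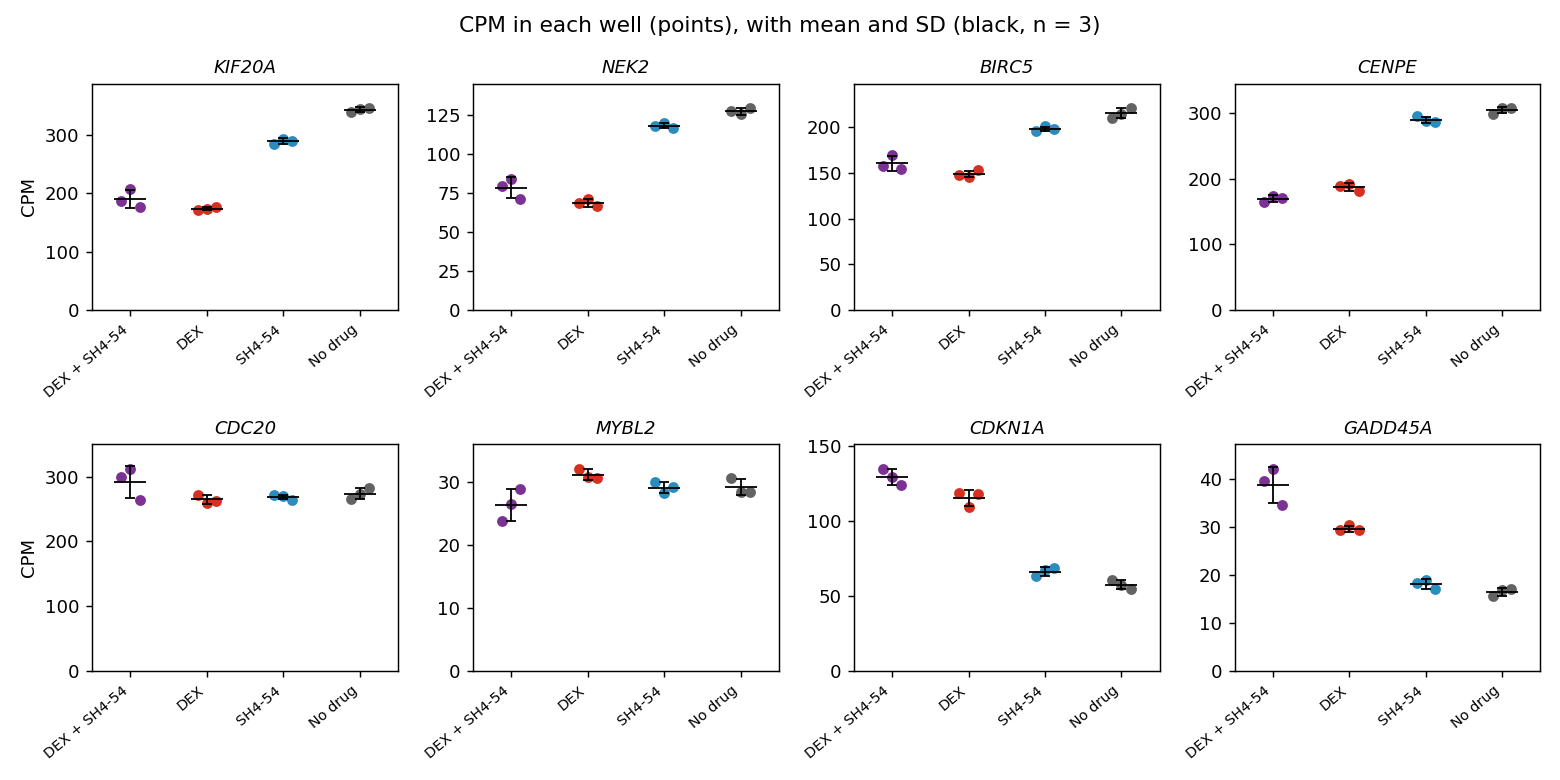
CPM in each well (points) with the mean and SD (black, n = 3) of 6 of the 48 genes and of CDKN1A and GADD45A, in wells with DEX and SH4-54, DEX, SH4-54 and no drug. KIF20A, NEK2, BIRC5 and CENPE are low in both groups with DEX, CDC20 and MYBL2 were not called with DEX against no drug, and CDKN1A and GADD45A are high in both groups with DEX.

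The next comparison sets both compounds against DEX alone. In it 6 of the 48 genes rose and 6 fell (edgeR), and 13% of all tested genes were called higher and 13.5% lower, so that the counts lie near the background and are no result about the 48 genes. The median of the 48 was 0.03, against 0.00 over all tested genes. The risen genes were PLK1 (0.26 ± 0.075), PTTG1 (0.22 ± 0.064), NEK2 (0.18 ± 0.051), CDC20 (0.14 ± 0.048), KIF20A (0.13 ± 0.045) and BIRC5 (0.11 ± 0.037). These encode kinases, securin, the APC/C activator, a cytokinesis kinesin and survivin. The fallen genes were MYBL2 (-0.24 ± 0.062), CENPE (-0.14 ± 0.033), CENPF (-0.13 ± 0.035), NDC80 (-0.13 ± 0.03), KIF14 (-0.13 ± 0.032) and TOP2A (-0.10 ± 0.029). They include 3 of the 6 kinetochore genes, while CENPA (-0.06 ± 0.043), NUF2 (0.09 ± 0.041) and SPC25 (0.06 ± 0.079) were not called.

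CENPE had 164, 174 and 171 CPM with both compounds and 189, 192 and 181 CPM with DEX (edgeR adjusted p = 0.00612). NDC80 had 122, 125 and 122 CPM with both compounds and 131, 138 and 134 CPM with DEX (edgeR adjusted p = 0.00507). KIF14 had 141, 143 and 139.8 CPM with both compounds and 150.1, 158 and 154 CPM with DEX (edgeR adjusted p = 0.011). In all 3 genes every combination well lay below every DEX well, as it did in 10 of the 48 genes and in 20.3% of all tested genes. MYBL2 had 23.7, 26.6 and 28.8 CPM with both compounds and 32.1, 30.7 and 30.7 CPM with DEX (edgeR adjusted p = 0.0123), again without overlap. PLK1 had 47.2, 60.6 and 48.3 CPM with both compounds and 44.8, 43.4 and 41.8 CPM with DEX (edgeR adjusted p = 0.0175). Combination replicate 2 was the highest of these PLK1 wells, and it was also the highest combination well for NEK2, PTTG1, CDC20, KIF20A and BIRC5. PLK1, BIRC5 and KIF20A were the 3 genes with every combination well above every DEX well, against 19.6% of all tested genes.

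Of these 12 calls, those of CENPE and NDC80 held under every setting tried. Without combination replicate 2, none of the 6 risen genes was called (edgeR adjusted p = 0.0592 for PLK1, 0.08 for NEK2, 0.109 for PTTG1, 0.179 for BIRC5, 0.182 for KIF20A and 0.214 for CDC20). The number risen was 1 without combination replicate 1, 2 without DEX replicate 2 or 3, and 3 without DEX replicate 1, SH4-54 replicate 2 or 3, or no-drug replicate 2. The number fallen was 3 without DEX replicate 2, where KIF14, CENPF and TOP2A missed the threshold (edgeR adjusted p = 0.0536, 0.0613 and 0.0713). CENPF also missed it without DEX replicate 1 (0.0544) or combination replicate 1 (0.0661), and MYBL2 without combination replicate 1 (0.0556).

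The interaction asked whether the change with DEX differed when SH4-54 was present, as the difference between the log2 fold changes with and without SH4-54. The interaction was above 0 in 38 of the 48 genes, with a median of 0.10, and in 7273 of the 14184 tested genes, with a median of 0.01. Across the 48 genes the 2 log2 fold changes had a Pearson correlation of 0.793, a description over genes that share the same wells. Of the 48 genes, 3 had an interaction above 0 by edgeR's test and 0 below it, while 2.44% of all tested genes were called above 0 and 1.46% below it. At an unadjusted p below 0.05, 19 of the 48 were above 0 and 2 below it, against 1557 and 1435 of all 14184 tested genes. The DESeq2 Wald test called 6 of the 48 above and 1 below, against 369 and 375 of all genes it tested. KIF20A changed by -0.61 ± 0.045 with DEX in the presence of SH4-54 and by -0.99 ± 0.045 without it, an interaction of 0.38 ± 0.063 (edgeR adjusted p = 0.00723). It had 186, 207 and 176 CPM with both compounds, 171, 172 and 176 CPM with DEX, 283, 293 and 289 CPM with SH4-54 and 338, 344 and 346 CPM without drug. Both groups with DEX were thus low, and the SH4-54 wells were below the no-drug wells.

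NEK2 had 79.8, 84.2 and 70.9 CPM with both compounds, 68.5, 71.5 and 66.4 CPM with DEX, 118, 120.0 and 117 CPM with SH4-54 and 127, 125 and 129.7 CPM without drug, an interaction of 0.29 ± 0.071 (edgeR adjusted p = 0.0354). BIRC5 had 158, 170.0 and 155 CPM with both compounds, 148, 146 and 153 CPM with DEX, 196, 201 and 198 CPM with SH4-54 and 211, 215 and 221 CPM without drug, an interaction of 0.23 ± 0.052 (edgeR adjusted p = 0.0271). In both genes the wells with DEX stayed below all wells without it. The KIF20A interaction held when any single library was left out (edgeR adjusted p up to 0.0276). The NEK2 interaction held only without combination replicate 3 and was lost without any other single library (edgeR adjusted p between 0.0535 and 0.0943). The BIRC5 interaction was lost without DEX replicate 1 or 2, SH4-54 replicate 2 or 3, or no-drug replicate 2 or 3 (edgeR adjusted p between 0.0597 and 0.0785). The count rose to 14 of the 48 genes without combination replicate 3 and was 1, KIF20A, without DEX replicate 1 or 2, SH4-54 replicate 2 or 3, or no-drug replicate 2 or 3. The counts over all tested genes moved too. Without combination replicate 3, 833 of 14357 were called above 0 and 1213 below it. In the fits with KIF20A alone, 135 to 178 were above 0, against 346 in the main fit. PTTG1 and PLK1 had interactions of 0.34 ± 0.09 and 0.34 ± 0.1 that did not pass (edgeR adjusted p = 0.0522 and 0.0782).

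GADD45A and CDKN1A were higher with both compounds than with DEX. GADD45A had 39.5, 42.1 and 34.6 CPM with both compounds and 29.3, 30.3 and 29.2 CPM with DEX, without overlap, a log2 fold change of 0.38 ± 0.066 (edgeR adjusted p = 0.000976). CDKN1A had 135, 129 and 124 CPM with both compounds and 118, 109 and 118 CPM with DEX (0.17 ± 0.047, edgeR adjusted p = 0.0166), also without overlap. Of the 11 CDK1 regulators 4 rose and 1 fell with both compounds against DEX, SFN being lower (-0.20 ± 0.051). Of the 39 other mitosis genes 4 rose and 4 fell, of the 8 condensins 2 rose and 2 fell, and of the 13 centromere genes 1 rose and 1 fell, while 13% of all tested genes were called higher and 13.5% lower. The MuvB and DREAM list had 2 of 11 risen and 2 fallen, and the APC/C list 2 of 17 risen, UBE2S among them (0.31 ± 0.074), and 3 fallen.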

How the data were processed

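The deposited file holds raw integer counts of reads for each gene symbol in 12 libraries. Each library's group and number come from its title, since 1 label of the SH4-54 wells spells the compound SH5-54. Per the labels' protocols, RNA was depleted of ribosomal RNA, made into stranded libraries and sequenced as single-end reads. HISAT2 2.1.0, SAMtools and featureCounts 1.5.1 with hg19 and GRCh37 are named in the submitters' processing notes. No source used here states the strand setting or how reads with several matches were counted.

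The tests used edgeR 4.0.16 in R 4.3.3 (filterByExpr by group, TMM, glmQLFit and glmQLFTest). The 4 groups shared a single model over the 12 libraries, which left 8 residual degrees of freedom. P-values were adjusted by Benjamini-Hochberg over the 14184 tested genes and called below 0.05. A standard error is the size of the log2 fold change divided by the root of its F statistic. Replicate libraries differed by more than sampling noise, with chi-square values of 4.37 or more per degree of freedom.

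The 48 genes, their functional groups and the 7 other lists were chosen with earlier results of these data known. CPM per well is printed for the 2 genes of each functional group with the largest change with DEX, for genes called with SH4-54 or in the interaction, for the 4 smallest p-values against DEX, and for genes that did not fall. CDK1, BUB3 and CDC23 were added after their values were seen. Up to 3 genes per other list, by smallest p-value, are named, and 1 item that this rule takes is not reported here. Alternatives were DESeq2 1.42.0 (size factors, Wald test), no filter, a stricter filter, a fit of the compared groups only, the replicate number as a block, removal of the top 10 genes by abundance, and the omission of each library in turn. Older symbols were matched through the reference table.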

Additional observations from a re-analysis of the deposited data

Results flagged for a closer look

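In 3 genes the change with DEX differed between wells with and without SH4-54 by the test of that difference. The interaction was 0.38 on the log2 scale for KIF20A (edgeR adjusted p = 0.00723), the cytokinesis kinesin, with lower levels in all 3 combination wells than in all 3 SH4-54 wells, and in all 3 DEX wells than in all 3 no-drug wells. For NEK2, the centrosome kinase, it was 0.29 (edgeR adjusted p = 0.0354), and for BIRC5, survivin, it was 0.23 (edgeR adjusted p = 0.0271), with the same separation of wells. A positive value means a smaller fall with DEX when SH4-54 was present. The KIF20A call was kept under every setting tried. The NEK2 call was lost in 11 and the BIRC5 call in 6 of the 12 fits that each left out a library.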

How the results depend on the processing

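Direction was followed for all 48 genes with DEX against no drug, and in other comparisons for the genes called in the main fit. None of these directions was reversed under any alternative, and the 45 falls with both compounds against SH4-54 were called in all of them. With DEX against no drug the number fallen was 46, and 45 to 46 when a library was left out and also under the other settings. The numbers fallen were 44 to 46 with both compounds against no drug and 45 to 46 against SH4-54 when a library was left out. With SH4-54 the number fallen was 2, and it was 4 with no count filter (PRC1 and DLGAP5 added), 4 with the compared groups only, 7 with the DESeq2 Wald test and 1, KIF20A, with the replicate number as a block, and 0 to 4 when a library was left out. With both compounds against DEX the number risen was 6, and it was 3 with DESeq2 size factors, 0 with the compared groups only and 0 to 9 when a library was left out, while the number fallen ranged from 3 to 7. Against SH4-54 CDC20 rose, 1 gene, with no filter and with the stricter filter. The number risen was 0 to 1 both there and against no drug when a library was left out. In the interaction the number above 0 was 3, and it was 6 with no filter, 6 with DESeq2 (which called 1 gene, TOP2A, below 0) and 1 to 14 when a library was left out, with 0 to 1 below 0. The causes were not tested.

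Over all genes, SH4-54 called 85 genes, and 176 without a filter, 155 with the compared groups only and 180 with DESeq2. It called 26 and 35 without no-drug replicate 2 and 3, 48 and 47 without SH4-54 replicate 1 and 2, and 138 and 163 without combination replicate 2 and 3. Both compounds against DEX called 3770 genes, and 2213 without combination replicate 2. The interaction called 553 genes, and 848 without a filter. It ranged from 204 without DEX replicate 2 to 2046 without combination replicate 3. Of the genes called in the interaction, 62.6% were above 0 in the main fit and 40.7% without combination replicate 3. Both scalings left the median of all genes within 0.01 of each other, but the split of the calls moved. With DESeq2 size factors, 44.6% of the genes called with both compounds against DEX were higher, against 49.1% with TMM. In the interaction 56.1% of the called genes were above 0 with DESeq2 size factors, against 62.6% with TMM. No pairing of wells by replicate number was visible. Same-number wells had correlations of their deviations between -0.0975 and 0.0926 over 18 pairs, and 3 of 12 wells correlated best with their own number. Such values cannot show that the wells were unpaired.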

Other observations

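Of the 28 G1/S and DNA replication genes, 8 rose and 1 fell with both compounds against DEX (edgeR, adjusted p below 0.05). Of all tested genes, 13% were called higher and 13.5% lower. The counts of this list were not repeated under the other settings. Over all genes, 3770 were called in this comparison, and 2213 without combination replicate 2. CHAF1A, a subunit of the chromatin assembly factor that works behind the replication fork, had a log2 fold change of 0.23 in that comparison (edgeR adjusted p = 0.000944). The difference between this list and the 48 mitosis genes was not tested.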
